A study of Mus musculus with 7 samples.

Results

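Cyclic nucleotide signalling was followed through 10 genes in neurons of the cortex from mouse embryos at E16.5 that carry a mutation of KAT7, a histone acetyltransferase of the MYST family. The genes are the adenylyl cyclases Adcy1, Adcy2, Adcy3, Adcy5, Adcy6, Adcy8 and Adcy9, the anchoring protein gene Sphkap, the kinase regulatory subunit gene Prkar1b and the cGMP-dependent kinase gene Prkg2. They were chosen by name, with the results of this same comparison known, and all 10 were found by Entrez identifier among the 26286 genes of the count table. All 10 passed the filter on low counts, which left 13681 genes, and Prkg2 passed it only through the mutant libraries, where it is high. The values of these genes between genotypes are therefore given as a description, with no p-value.

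PolyA RNA was sequenced from 4 KAT7 mutant and 3 wild type embryos, all male and of strain C57BL/6. The design text counts the animals as separate mice, but neither the allele, nor the driver of any Cre, nor the isolation of the neurons is given in the sources used here. Total counts were 8272487 to 8730911 in KAT7 mutant libraries and 8354636 to 8813060 in wild type libraries. Kat7, the targeted gene, had 3, 4, 3 and 10 counts in the mutant libraries, against 869, 848 and 854 in wild type. Neuronal markers were present as labelled, with a summed level of 8739 to 9478 counts scaled to library size (CPM) in KAT7 mutant and 8898 to 9444 CPM in wild type over 8 genes. Radial glial markers summed to 177 to 216 CPM in KAT7 mutant and 240 to 260 CPM in wild type, with 5 of 7 tested genes called lower. Their part in the values below was not tested. Beside the marker counts here and below, 15.8% of all tested genes were called lower and 13.1% higher. KAT7 mutant replicate 1 stood apart in the 17 immediate early genes, which sum to 737 CPM there, 483 to 510 CPM in the other mutant libraries and 456 to 535 CPM in wild type.

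Adenylyl cyclases make cAMP from ATP and are switched on or off by G proteins and, for some isoforms, by calcium. cAMP releases the catalytic subunits of protein kinase A (PKA) from its regulatory subunits, A-kinase anchoring proteins hold the kinase near its substrates, and phosphodiesterases remove the signal. cGMP is made by guanylyl cyclases, of which the soluble form answers to nitric oxide, and acts through the cGMP-dependent kinases Prkg1 and Prkg2. In the developing cortex, Adcy1 is known for its part in the refinement of sensory maps, and its loss in the barrelless mouse disturbs the barrel pattern.

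Of the 10 genes, 4 were lower (Adcy1, Adcy2, Adcy6 and Sphkap), 1 was higher (Prkg2) and 5 were not called, at an adjusted p under 0.05 in the quasi-likelihood test of edgeR. Of all tested genes, 28.9% were called, 13.1% higher and 15.8% lower in KAT7 mutant, and since the genes were chosen on this contrast nothing is read from the share among them. The CPM of the genotypes did not overlap in 6 of the 10 genes, against 35.3% of all tested genes. In KAT7 mutant 5 of these 6 were lower, and 18.8% of all tested genes were lower without overlap. The median log2 fold change of KAT7 mutant over wild type was -0.20 over the 10 genes, which ranged from -1.60 to 1.98, and 0.00 over all tested genes, of which the middle 90% lay between -0.84 and 0.51. Without KAT7 mutant replicate 1 the calls were 4 lower and 0 higher, as Prkg2 then failed the filter on low counts. Fewer cells of a type and less RNA per cell cannot be told apart in these bulk libraries.

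**Figure D1:**
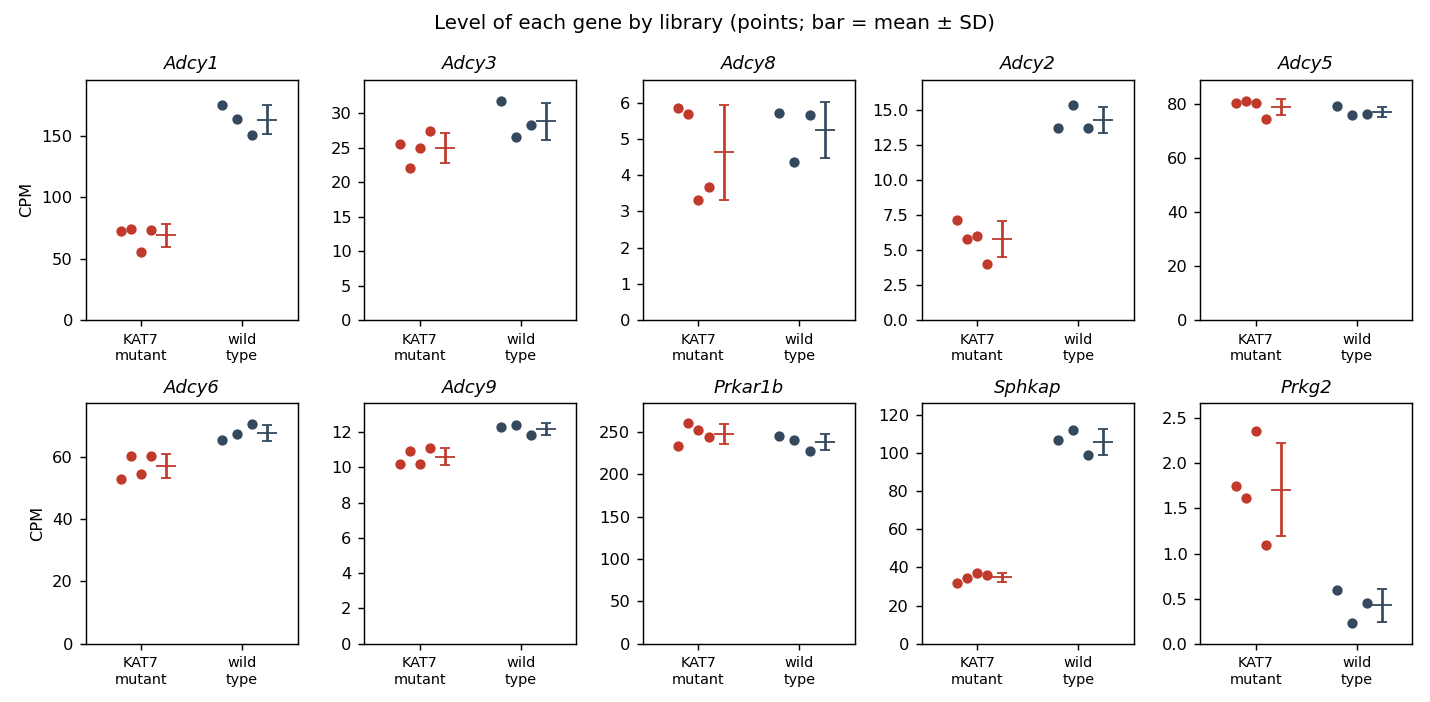
Level of the 10 genes in CPM (y axis, from 0) in each library, KAT7 mutant (red, n = 4) left of wild type (blue, n = 3), with the mean and SD as a bar. Adcy1, Adcy2, Sphkap and Prkg2 are widely separated between genotypes, Adcy6 and Adcy9 narrowly, and Adcy3, Adcy5, Adcy8 and Prkar1b overlap.

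Among the cyclases usually grouped as calcium-stimulated, Adcy1 stood far below wild type and the others did not. Adcy1 (Entrez 432530, chromosome 11) had 72.9, 74.4, 55.4 and 73.5 CPM in KAT7 mutant replicates 1 to 4, against 175, 164 and 151 CPM in wild type replicates 1 to 3. Every mutant library was below every wild type library, and replicate 3 was the lowest mutant library. The mean was 69.1 ± 9.12 CPM (SD, n = 4) in KAT7 mutant and 163 ± 12 CPM (SD, n = 3) in wild type, a log2 fold change of -1.24 ± 0.08 (SE), or 2.37-fold lower.

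Adcy3, the cyclase of olfactory neurons and of neuronal primary cilia, had 25.5, 22.1, 25.0 and 27.4 CPM in KAT7 mutant and 31.8, 26.5 and 28.3 CPM in wild type. The ranges overlapped through KAT7 mutant replicate 4, and the log2 fold change was -0.21 ± 0.09 (SE). Its exons share 22.1% of their bases with Cenpo on the opposite strand in the GENCODE annotation. With no strand setting of the counting stated, reads of the pair cannot be told apart. Adcy8, also calcium-stimulated, was the lowest of the 7 cyclases in CPM, with 5.84, 5.68, 3.31 and 3.67 CPM in KAT7 mutant and 5.70, 4.35 and 5.66 CPM in wild type. Its mutant libraries fell into a higher and a lower pair that spanned the wild type values, and its log2 fold change was -0.17 ± 0.21 (SE).

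Adcy2, which the beta-gamma subunits of G proteins stimulate, showed a fold change close to that of Adcy1 from a far lower level in CPM. It had 7.13, 5.80, 6.02 and 4.03 CPM in KAT7 mutant replicates 1 to 4, against 13.7, 15.3 and 13.7 CPM in wild type. The highest mutant library lay well under the lowest wild type library, and the log2 fold change was -1.30 ± 0.15 (SE), or 2.47-fold lower. Of its exon bases, 4.49% are shared with a predicted gene on the opposite strand.

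The calcium-inhibited pair, Adcy5 and Adcy6, moved little. Adcy5, prominent in the striatum of the adult brain, had 80.3, 81.0, 80.4 and 74.6 CPM in KAT7 mutant and 79.3, 76.0 and 76.3 CPM in wild type. The genotypes overlapped, with a log2 fold change of 0.04 ± 0.06 (SE). Striatal markers summed to 70.4 to 84.5 CPM in KAT7 mutant and 81.3 to 95.8 CPM in wild type, and of 6 tested 3 (Penk, Rgs9 and Foxp1) were called lower and 1 (Drd1) higher. Their part in the Adcy5 value was not tested. Adcy6, a broadly expressed isoform, had 52.8, 60.3, 54.5 and 60.3 CPM in KAT7 mutant, against 65.4, 67.4 and 70.5 CPM in wild type. It was called lower with no overlap, at a log2 fold change of -0.25 ± 0.07 (SE), or 1.19-fold lower, and 8.92% of its exon bases are shared with a predicted gene on the opposite strand. Adcy9, known for its weak response to forskolin, had 10.2, 10.9, 10.2 and 11.1 CPM in KAT7 mutant and 12.3, 12.4 and 11.8 CPM in wild type. Its groups did not overlap either, but it was not called (log2 fold change -0.20 ± 0.12, SE).

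The promoters of the 3 genes that stood lowest against wild type are shown beside that of Adcy5, the most abundant cyclase per length and one that was not called. Each is the 250 bases before the gene's start, from 5′ to 3′ on the gene's strand, taken from RefSeq on GRCm38.p6 by Entrez identifier. Capitals mark the GC box GGGCGG on either strand.
Adcy1 (chr11:7063183-7063432, plus strand): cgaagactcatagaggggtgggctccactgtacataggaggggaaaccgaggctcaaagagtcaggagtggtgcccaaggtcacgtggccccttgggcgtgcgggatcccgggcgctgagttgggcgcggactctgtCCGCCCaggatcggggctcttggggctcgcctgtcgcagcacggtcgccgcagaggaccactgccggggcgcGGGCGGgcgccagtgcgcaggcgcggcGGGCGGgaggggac
Adcy2 (chr13:68999542-68999791, minus strand): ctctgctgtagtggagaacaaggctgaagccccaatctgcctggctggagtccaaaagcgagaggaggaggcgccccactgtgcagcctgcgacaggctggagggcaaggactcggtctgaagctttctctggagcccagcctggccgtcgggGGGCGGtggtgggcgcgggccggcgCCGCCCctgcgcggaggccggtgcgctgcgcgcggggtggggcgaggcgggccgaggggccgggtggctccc
Sphkap (chr1:83408201-83408450, minus strand): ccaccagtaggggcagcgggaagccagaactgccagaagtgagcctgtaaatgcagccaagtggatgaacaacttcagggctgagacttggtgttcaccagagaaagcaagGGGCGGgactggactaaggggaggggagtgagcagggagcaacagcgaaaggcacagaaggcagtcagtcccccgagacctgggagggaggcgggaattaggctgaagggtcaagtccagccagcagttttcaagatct
Adcy5 (chr16:35154614-35154863, plus strand): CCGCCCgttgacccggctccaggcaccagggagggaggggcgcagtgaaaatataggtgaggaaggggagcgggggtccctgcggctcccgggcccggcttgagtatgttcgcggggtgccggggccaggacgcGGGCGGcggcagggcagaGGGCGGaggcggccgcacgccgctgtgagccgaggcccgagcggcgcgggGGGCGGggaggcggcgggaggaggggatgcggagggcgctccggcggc
The windows of Adcy1, Adcy2 and Adcy5 held 26, 23 and 32 CpG dinucleotides, and that of Sphkap held 5. The median over all 32851 RefSeq promoters was 6, and none was taken over the promoters of tested genes alone. The GC box occurred 3 times at Adcy1, 2 times at Adcy2, 1 time at Sphkap and 4 times at Adcy5, and at least once in 32.7% of all promoters and 57.6% of those of tested genes. The palindromic cAMP response element TGACGTCA, searched in the same windows, was in 0 of the 12 promoters listed for 7 of the 10 genes, in 1.55% of all promoters and in 2.65% of those of tested genes. Its core TGACG, which the palindrome contains, was found on either strand in 2 of the 12, in 17.8% of all promoters and in 26.4% of those of tested genes. These matches are letters in a window, not sites. The 12 windows are not independent, as Prkar1b and Adcy3 each had more than 1 and some of those of Prkar1b overlapped. No promoter was listed for Adcy6, Adcy8 or Prkg2.

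Per kilobase of gene length, the summed cyclase transcripts were lower in KAT7 mutant and the order of isoforms differed. The 8 tested cyclases, Adcy7 included, summed to 41.8, 42.4, 40.0 and 41.8 CPM per kilobase in KAT7 mutant libraries, against 55.3, 52.9 and 52.5 in wild type. The mutant mean was 77.5% of the wild type mean, and 89.1% with Adcy1 left out of the sum. The calcium-stimulated isoforms Adcy1, Adcy3 and Adcy8 together summed to 12.5, 11.9, 10.5 and 12.5 CPM per kilobase in KAT7 mutant, against 22.1, 19.9 and 19.4 in wild type. These sums were not tested, as they rest on genes chosen for this contrast.

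Adcy5 took 37.7% ± 1.84 of the summed level in KAT7 mutant (SD, n = 4) and 28.5% ± 0.181 in wild type (SD, n = 3), although its own level was 15.6 ± 0.597 CPM per kilobase in KAT7 mutant and 15.3 ± 0.367 in wild type. Adcy1 took 11.3% to 14.3% in KAT7 mutant libraries and 23.4% to 25.8% in wild type libraries. In wild type the order of mean levels was Adcy5, Adcy1, Adcy6, Adcy3, Adcy2, Adcy9, Adcy8 and Adcy7, and no neighbours in that order overlapped between libraries. In KAT7 mutant the order was Adcy5, Adcy6, Adcy1, Adcy3, Adcy9, Adcy2, Adcy8 and Adcy7. There Adcy1 at 4.52 to 6.07 CPM per kilobase overlapped Adcy3 at 4.68 to 5.79, and Adcy8 overlapped its neighbours Adcy2 and Adcy7.

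**Figure D2:**
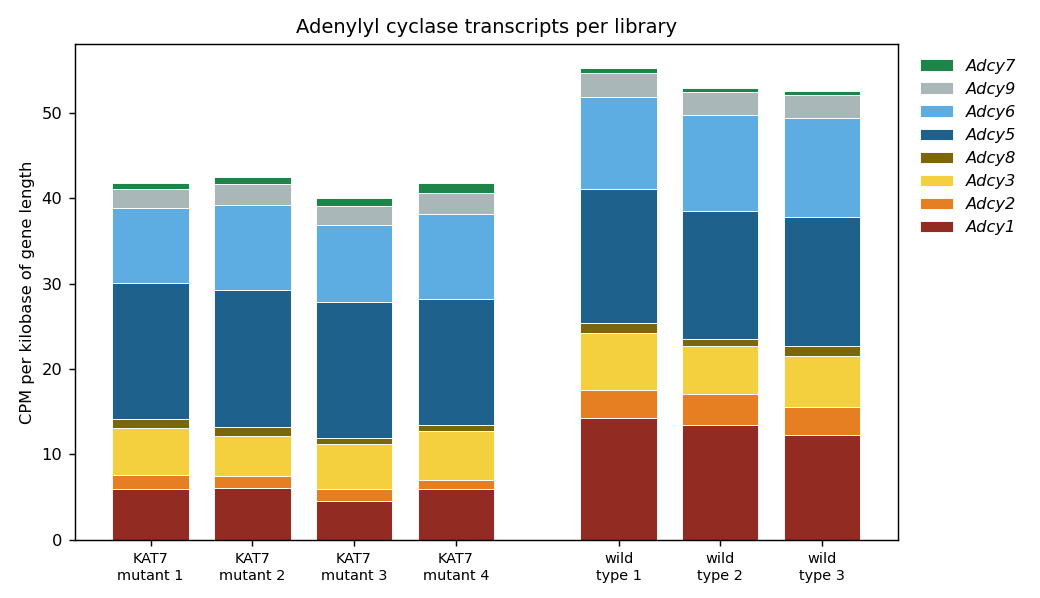
Level of the 8 tested adenylyl cyclases in CPM per kilobase of gene length (y axis, from 0), stacked by isoform, in each KAT7 mutant library (left) and each wild type library (right). Stacks reach 40.0 to 42.4 in KAT7 mutant and 52.5 to 55.3 in wild type, and the Adcy1 segment at the base is the one that shrinks most.

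Outside the 10 genes, Adcy7 was the only cyclase called higher. Adcy7, an isoform best known in immune cells, had 4.56, 4.64, 5.79 and 6.97 CPM in KAT7 mutant, against 4.04, 2.63 and 3.05 CPM in wild type. All mutant libraries were above all wild type libraries, by a log2 fold change of 0.76 ± 0.21 (SE, edgeR adjusted p = 0.0104). The call was lost without wild type replicate 2 (0.62, edgeR adjusted p = 0.0679, in a range of 0.00254 to 0.0679 over all alternatives). The 7 microglial markers summed to 26.8 to 35.7 CPM in KAT7 mutant and 17.2 to 20 CPM in wild type. In edgeR 4 of 6 tested were called higher, and none was at 0 in every library. DESeq2 called 2 of these markers higher and limma-voom 4. Their part in the Adcy7 value was not tested. Adcy4 had 0 to 4 counts and Adcy10, the soluble cyclase, 2 to 7 counts per library, too few to be tested.

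Sphkap, an anchoring protein that binds the type I regulatory subunits of PKA, stood lowest of the 10 genes against wild type. Sphkap (Entrez 77629, chromosome 1) had 31.8, 34.5, 37.2 and 35.8 CPM in KAT7 mutant replicates 1 to 4, against 107, 112 and 98.7 CPM in wild type. The 4 mutant libraries lay close together and far below the wild type libraries. The mean was 34.8 ± 2.31 CPM (SD, n = 4) in KAT7 mutant and 106 ± 6.53 CPM (SD, n = 3) in wild type, a log2 fold change of -1.60 ± 0.07 (SE), or 3.03-fold lower. Among 12188 other named genes tested, those closest to Sphkap in log2 CPM centred on the mean of the 7 libraries were Gria3, an AMPA receptor subunit gene, at a mean absolute difference of 0.06, then Me3, a malic enzyme gene, and Ptprk, a receptor tyrosine phosphatase gene, both at 0.08. Their log2 fold changes were -1.59, -2.12 and -1.44. Me3 was near the floor, at 0.413 ± 0.0637 CPM in KAT7 mutant and 1.85 ± 0.162 CPM in wild type. The prior count of 2 used for this measure shrinks differences at such levels.

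The other anchoring proteins were called in both directions and by smaller amounts. Of 17 listed, Sphkap included, 16 were matched and 13 tested. Of these 13, still with Sphkap, 4 were higher, 5 lower and 4 not called, at a median log2 fold change of -0.03. That is 69.2% called, beside 28.9% of all tested genes. Akap7 fell to 10.7, 13.7, 11.8 and 13.8 CPM in KAT7 mutant, against 23.5, 23.6 and 18.1 CPM in wild type, a log2 fold change of -0.79 ± 0.12 (SE, edgeR adjusted p = 5.31e-05). Akap12, or gravin, fell by 0.65 ± 0.08 (edgeR adjusted p = 4.99e-06) and Ezr, which encodes ezrin, fell by 0.62 ± 0.10 (8.21e-05). Akap9, a large anchor of the centrosome and Golgi, rose to 628 ± 51.4 CPM in KAT7 mutant, against 516 ± 30.1 CPM in wild type, by 0.28 ± 0.06 (0.00114). Akap11, Akap6 and Akap8 rose by 0.15 to 0.17 and Akap13 fell by 0.32, and these calls were lost in 1, 7, 11 and 10 of 15 alternatives. The number higher was 2 without KAT7 mutant replicate 1 or 3 or wild type replicate 1 or 2, and 1 without wild type replicate 3. Map2 and Akap1, the most abundant of those not called, had log2 fold changes of -0.08 and -0.03.

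The tested PKA transcripts had log2 fold changes from -0.20 to 0.41. CPM did not overlap between genotypes in 4 of 8 tested PKA subunit and inhibitor genes, beside 35.3% of all tested genes. Prkar1b, the type I beta regulatory subunit that is largely neuronal, had 234, 261, 252 and 244 CPM in KAT7 mutant and 245, 241 and 227 CPM in wild type. The groups overlapped, at a log2 fold change of 0.06 ± 0.05 (SE), and 8.95% of its exon bases are shared with a predicted gene on the same strand. Per kilobase it was by far the most abundant of the 10 genes, at 94.1 ± 4.45 CPM per kilobase in KAT7 mutant and 90.2 ± 3.62 in wild type.

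Of 8 tested PKA subunits and inhibitors, 1 rose, 1 fell and 6 were not called, at a median log2 fold change of -0.03. That is 25% called, near the 28.9% of all tested genes, so nothing particular to these genes is read from the count. Prkacb, the beta catalytic subunit, rose to 13.7, 17.2, 16.1 and 15.9 CPM in KAT7 mutant, against 11.2, 12.5 and 11.9 CPM in wild type, by 0.41 ± 0.12 (SE, edgeR adjusted p = 0.0116). That call was lost without wild type replicate 1 (0.36, edgeR adjusted p = 0.0533, in a range of 0.00425 to 0.0533 over all alternatives). Prkar2b, the type II beta regulatory subunit, fell to 251, 265, 265 and 239 CPM in KAT7 mutant, against 288, 306 and 287 CPM in wild type, by 0.20 ± 0.05 (0.0046). Prkaca, the main catalytic subunit here, had a log2 fold change of -0.13 ± 0.05 (0.0672) and was called lower without KAT7 mutant replicate 3 (-0.16, 0.031), so 2 genes of the list were then lower. Prkar1a, Prkar2a and the inhibitor genes Pkia and Pkig had log2 fold changes of -0.01, -0.05, 0.14 and -0.14, and Pkib had too few counts to be tested.

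The cGMP-dependent kinases differed in opposite directions. Prkg2, the membrane-bound form (Entrez 19092, chromosome 5), had 15, 14, 20 and 9 counts in KAT7 mutant replicates 1 to 4, against 5, 2 and 4 counts in wild type. In CPM these were 1.75, 1.62, 2.36 and 1.10 in KAT7 mutant, against 0.594, 0.229 and 0.453 in wild type. The lowest mutant library was above the highest wild type library, but on few reads, and the log2 fold change was 1.98 ± 0.43 (SE), or 3.95-fold. It failed the filter on low counts without KAT7 mutant replicate 1, 2 or 3. Among the genes closest to it in pattern were Sstr3, a somatostatin receptor gene found in neuronal cilia, at a mean absolute difference of 0.20, and H1f2, a linker histone gene, at 0.21. The prior count of 2 shrinks differences at the low counts of Prkg2 in this measure.

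Prkg1, the soluble form, is not among the 10 genes and fell to 0.584, 0.812, 0.827 and 0.367 CPM in KAT7 mutant, against 4.16, 4.35 and 4.07 CPM in wild type. All mutant libraries lay far below wild type, at 3 to 7 counts against 35 to 38, and the log2 fold change was -2.66 ± 0.28 (SE). Prkg1 passed the filter on low counts only through the wild type libraries, where it is high, so no p-value is given. With Prkg2 let in only by the mutant libraries, the shares of the 2 kinases are a description. Per kilobase, Prkg2 made up 71.0% ± 4.17 of the 2 kinases in KAT7 mutant (SD, n = 4) and 8.49% ± 3.56 in wild type (SD, n = 3), while their sum in KAT7 mutant was 48.4% of that in wild type. Oligodendrocyte lineage markers also rose, in 4 of 7 genes, and summed to 35.6 to 54.2 CPM in KAT7 mutant and 29.6 to 35.4 CPM in wild type. Astrocyte markers fell in 3 of 4 tested genes and rose in 0 (0 at an unadjusted p under 0.05 in edgeR, and 0 by DESeq2 and limma-voom), and summed to 14.0 to 24.5 CPM in KAT7 mutant and 31.9 to 40.5 CPM in wild type. The part of these cells in the kinase values was not tested.

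Enzymes upstream of these kinases were mostly lower. Gucy1a1 and Gucy1b1 encode subunits that pair as the soluble guanylyl cyclase. Gucy1a1 fell to 3.04, 3.83, 2.24 and 3.18 CPM in KAT7 mutant, against 6.77, 7.09 and 7.35 CPM in wild type, by 1.20 ± 0.18 on the log2 scale (SE, edgeR adjusted p = 4.92e-05). Gucy1b1 fell to 7.24, 8.00, 8.15 and 6.72 CPM in KAT7 mutant, against 14.0, 12.7 and 12.3 CPM in wild type, by 0.79 ± 0.13 (9.03e-05). Neither overlapped between genotypes, whereas Gucy1a2, the alternative alpha subunit, had 23.6 ± 0.683 CPM in KAT7 mutant and 21.3 ± 2.96 CPM in wild type and was not called (0.15 ± 0.10, edgeR adjusted p = 0.292). Npr2, the receptor guanylyl cyclase for C-type natriuretic peptide, fell by 0.36 ± 0.07 (edgeR adjusted p = 0.000753). Nos1, the neuronal nitric oxide synthase, named here after its value was seen, rose by 0.52 ± 0.10 (0.000476). Interneuron markers were called higher in 5 of 9 genes and lower in 1, with a median log2 fold change of 0.44, and summed to 353 to 480 CPM in KAT7 mutant and 279 to 442 CPM in wild type. Their part in the Nos1 value was not tested. In all, 4 of the 7 tested genes of this list fell and 2 rose, at a median of -0.36. That is 85.7% called, beside 28.9% of all tested genes, with Prkg1 and Prkg2 each let in by 1 genotype. Of the list, 1 rose without KAT7 mutant replicate 1, 2 or 3, where Prkg2 no longer passed the filter on low counts.

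**Figure D3:**
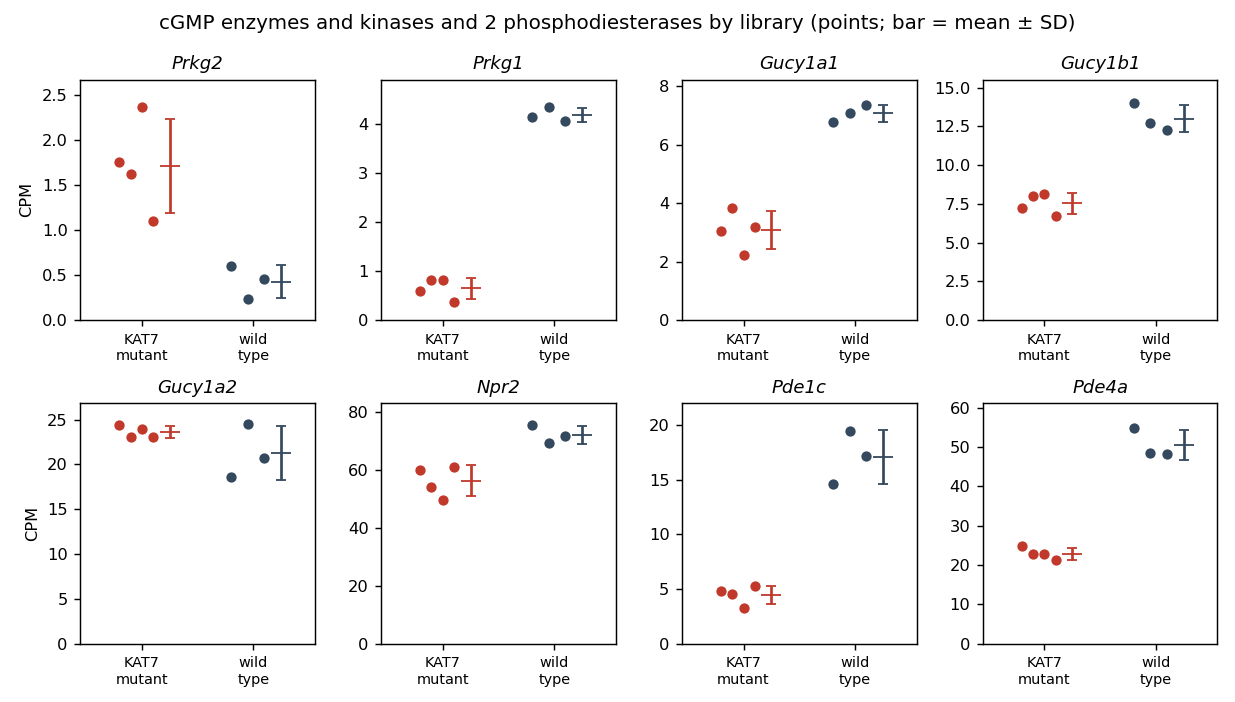
Level in CPM (y axis, from 0) of the cGMP-dependent kinases, guanylyl cyclases and 2 phosphodiesterases in each library, KAT7 mutant (red, n = 4) left of wild type (blue, n = 3), with the mean and SD as a bar. Prkg2 is above wild type in every mutant library, Gucy1a2 overlaps, and the other 6 genes are below wild type in every mutant library.

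Among genes listed by name as phosphodiesterases, subunit genes such as Pde6d included, 3 of 15 tested fell, 3 rose and 9 were not called. That is 40% called, beside 28.9% of all tested genes. The median log2 fold change of the 15 was -0.02, and the 2 that moved by more than 2-fold both fell. Pde1c, which calcium and calmodulin activate and which cleaves both cAMP and cGMP, had 4.79, 4.52, 3.31 and 5.26 CPM in KAT7 mutant, against 14.6, 19.5 and 17.2 CPM in wild type. Its log2 fold change was -1.93 ± 0.15 (SE, edgeR adjusted p = 9.55e-09). Pde4a, a cAMP-specific enzyme, had 24.8, 22.7, 22.8 and 21.2 CPM in KAT7 mutant, against 54.9, 48.6 and 48.2 CPM in wild type, a log2 fold change of -1.14 ± 0.08 (1.75e-09). Neither gene overlapped between genotypes. Pde6d fell by 0.22, and Pde4d, Pde3b and Pde10a rose by 0.28, 0.22 and 0.16, calls that were lost in 6, 1, 10 and 8 of 15 alternatives. The number higher was 1 without KAT7 mutant replicate 4 or wild type replicate 3 and 0 without wild type replicate 2. Pde7a and Pde2a, the most abundant of those not called, had log2 fold changes of -0.02 and -0.14.

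Of the 7 G protein alpha subunits that act on adenylyl cyclases, 3 fell and 0 rose in edgeR. That is 42.9% called, beside 28.9% of all tested genes. Among the 7, 2 were higher at an unadjusted p under 0.05, and 1 by DESeq2, by limma-voom and without KAT7 mutant replicate 1. Gnal, the stimulatory olfactory form, fell by 0.61 ± 0.06 on the log2 scale (SE, edgeR adjusted p = 8.63e-08), although 7.63% of its exon bases are shared with Mppe1 on the opposite strand. The inhibitory subunit genes Gnai2 and Gnai1 fell by 0.57 ± 0.06 (1.52e-07) and 0.27 ± 0.07 (0.00347). Gnas, which encodes the main stimulatory subunit, had 1352 ± 48.8 CPM in KAT7 mutant and 1243 ± 42.0 CPM in wild type (0.12 ± 0.05, edgeR adjusted p = 0.0564, in a range of 0.0304 to 0.234 over all alternatives), and Gnao1 had a log2 fold change of 0.00.

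Further downstream, 1 of 9 tested effector genes fell and 2 rose. Rapgef3, which encodes a form of the cAMP-activated exchange factor Epac, fell by 1.19 ± 0.31 on the log2 scale (SE, edgeR adjusted p = 0.00713). Its level was 0.885 ± 0.213 CPM in KAT7 mutant and 2.04 ± 0.389 CPM in wild type. Rapgef4, which encodes another form of Epac, had a higher mean level, 14.9 CPM in both genotypes. It was not called, at a log2 fold change of 0.00 ± 0.12 (SE). The CREB coactivator genes Crebbp and Crtc1 rose by 0.18 and 0.17, calls lost in 7 and 6 of 15 alternatives, and without KAT7 mutant replicate 2 or 4 or wild type replicate 1 or 3 neither was called, and without wild type replicate 2 only 1 was. Creb1 and Crtc3 had log2 fold changes of 0.04 and -0.12. Over the 7 cyclic nucleotide lists, 67 genes were tested, of which 20 fell, 13 rose and 34 were not called. Their median log2 fold change was -0.05, beside 0.00 for all tested genes. Without the 10 genes, 57 were tested, of which 16 fell, 12 rose and 29 were not called, at a median of -0.02. That is 49.1% called, beside 28.9% of all tested genes, in lists chosen with earlier results of these data known. With 1 library left out, the number that rose over all 7 lists was 6 to 11.

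**Figure D4:**
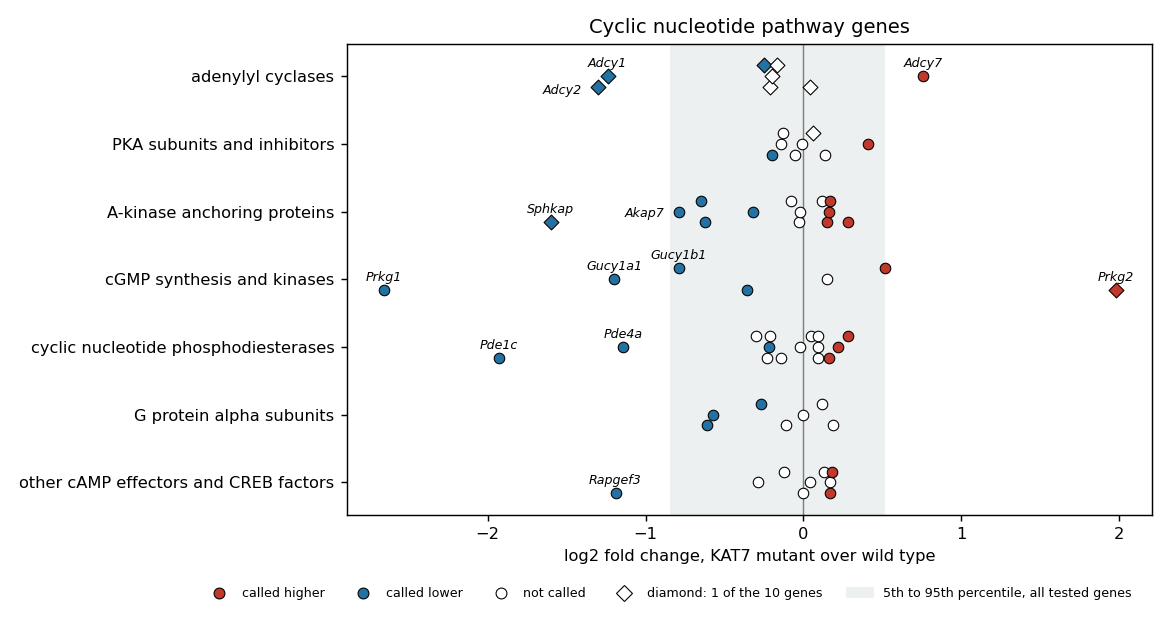
Log2 fold change of KAT7 mutant over wild type (x axis) for each tested gene of the 7 cyclic nucleotide lists (rows, with a small vertical offset for legibility), filled where called and as a diamond for the 10 genes, over a grey band from the 5th to the 95th percentile of all tested genes. Prkg1 at -2.66 and Prkg2 at 1.98 lie at opposite ends, and most PKA, G protein and effector genes sit within the band.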

How the data were processed

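The authors deposited a table of whole-number read counts per Entrez gene for the 7 libraries, with a gene length per gene, and its columns were matched to samples by their descriptions. Per the submitters' processing notes, featureCounts was used, with mm9 as the build. No aligner, annotation or strand setting is given in the sources used here. Symbols came from NCBI's GRCm38.p6 gene table for 92% of identifiers, and overlaps from GENCODE M21.

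Genes were filtered with filterByExpr (minimum count 10), scaled by TMM and compared with the edgeR 4.0.16 quasi-likelihood test in R 4.3.3, two-sided, genotype being the only term, with Benjamini-Hochberg adjustment over 13681 genes. SEs were derived from the F statistic. CPM use TMM-scaled library sizes, and CPM per kilobase the deposited length. The fit was tested on simulated counts. DESeq2 1.42.0, limma-voom (limma 3.58.1), other factors and filters, a replicate block and each library left out were alternatives. The 10 genes and the lists were chosen with earlier results of these data known. Named were the 10 genes, all tested cyclases, PKA, guanylyl cyclase and cGMP kinase genes, up to 4 called per direction and 2 uncalled from other lists, and the 3 genes nearest in pattern (prior count 2) to Sphkap and Prkg2, of which 1 is not reported here. Rapgef4 and Nos1 were named outside this rule. Pairs of libraries of a genotype differed beyond counting noise (chi-square per gene at least 2.055), so none was merged.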

Additional observations from a re-analysis of the deposited data

Results flagged for a closer look

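In 6 of 82 sets of the 4 KAT7 mutant values examined, 1 library lay far from the other 3, where chance gives about 1 in 20. Adcy1 was 55.4 CPM in KAT7 mutant replicate 3 and 72.9 to 74.4 CPM in the other mutant libraries, against 151 to 175 CPM in wild type. Adcy5 was 74.6 CPM in KAT7 mutant replicate 4 and 80.3 to 81.0 CPM in the others, against 76.0 to 79.3 CPM in wild type. Pde10a was 170 CPM in KAT7 mutant replicate 4 and 150 to 152 CPM in the others, against 138 to 143 CPM in wild type. Ptprk was 55.9 CPM in KAT7 mutant replicate 1 and 67.6 to 69.2 CPM in the others, against 169 to 183 CPM in wild type. Kat7 was 1.22 CPM in KAT7 mutant replicate 4 and 0.351 to 0.464 CPM in the others, against 96.6 to 103 CPM in wild type. The immediate early genes summed to 737 CPM in KAT7 mutant replicate 1 and 483 to 510 CPM in the other mutant libraries, against 456 to 535 CPM in wild type.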

How the results depend on the processing

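Of 59 genes named by rule or, for Nos1, outside it, 44 stayed on their side of the threshold in every alternative that gave a value. No called gene among the 59 reversed. Of those 44, Prkar1a, Pde7a, Gnao1 and Creb1, none of them called, changed sign near 0. Among the 10 genes, the 4 lower calls held throughout. Those higher numbered 0 or 1 with 1 library left out, being 0 without KAT7 mutant replicate 1, 2 or 3, where Prkg2 no longer passed the filter on low counts. Keeping the filter of all 7 libraries, an alternative chosen after seeing the data, reuses the values that let Prkg2 in and is no support for its call. The count of genes higher in KAT7 mutant was 1793, or 1034 at an adjusted p under 0.01. Over the cyclic nucleotide lists, 13 were higher, or 6 to 11 with 1 library left out and 5 at an adjusted p under 0.01. By list at that stricter threshold, the number higher went to 0 for cyclases, 0 for PKA genes, 2 for anchoring proteins, 1 for phosphodiesterases and 0 for effectors. Phosphodiesterases had 1 higher with library size only, DESeq2 or the replicate block, and G protein subunits 1 with RLE factors, DESeq2, limma-voom or the block. With library size only 2 PKA genes were lower, and without a low-count filter 2 effectors were. The summed adenylyl cyclase level was 76.7% to 78.7% of wild type over its alternatives. Where not stated, the cause was not tested. Replicate numbers are shared by both genotypes. The correlations of deviations were 0.018, 0.012 and -0.029 for numbers 1 to 3, and not every library correlated best with its own number. These values show no clear pairing by number, but they are too few to settle it. With the replicate number as a block, there were 1460 genes higher in KAT7 mutant and 1943 genes lower in KAT7 mutant, with 1 and 4 of the 10 genes, 10 and 18 of the lists, 2 PKA genes and 0 effectors higher. Depth limits Prkg2, Prkg1, Rapgef3 and Me3, which rest on few reads per library.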
